A study of Mus musculus with 14 samples.

Results

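The transcripts described here code for 10 proteins of the synaptic vesicle surface, read in neurons of the mouse medial vestibular nucleus: synaptoporin (Synpr) and synaptophysin (Syp), the SV2 family (Sv2a, Sv2b and Sv2c), the synapsins (Syn1, Syn2 and Syn3) and the small GTPases Rab3a and Rab3c. They were taken by symbol from the platform annotation, with every probe set of each gene that the array table holds. All 10 were found, on 17 of the 24034 probe sets that carry 1 gene symbol. Of these, 7 genes on 8 probe sets reached a log2 signal of 5 in at least 1 neuron type and entered the tests, while Syp, Sv2c and Syn3 did not.

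Neurons store transmitter in vesicles whose membrane carries a small set of abundant proteins. Synaptophysin and its relative synaptoporin cross the vesicle membrane several times and bind the fusion protein synaptobrevin, and SV2 proteins are transporter-like glycoproteins that affect calcium-triggered release. Synapsins tether vesicles in a reserve cluster and are released from it on phosphorylation, and Rab3 proteins dock vesicles through effectors such as RIM. The members of each family differ in where in the brain they are used, and most neurons hold more than 1 of them.

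The nucleus is a brainstem relay of head motion signals that serves eye and head movement. Single neurons came from C57BL/6 mice at postnatal day 24 to 32 that carried a fluorescent reporter, of 3 lines: GlyT2-13, GIN and YFP-16. Their cDNA was amplified cell by cell, the cells were sorted into types by transmitter genes, channels and markers, and the cDNA of each type was pooled. There were 2 excitatory pools (E1, E2) and 5 inhibitory pools (I1a and I1b, I2, and I3a and I3b), each read on 2 arrays, which gave 14. A further type, E3, is not analysed here. The labels give the same 3 lines for every pool, so which line a type came from is not known, and neurons that no reporter marks would not be sampled. How many cells a pool holds is not given in the labels, so a middle level in all cells and a high level in some cells cannot be told apart, nor can fewer cells and less RNA per cell.

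Signal over background set what could be read. Between 40.6% and 44.2% of the probe sets on an array lay within 0.01 log2 units of the floor of 2.39, and the 2 arrays of a pool correlated over the kept genes at r = 0.981 (I3a) to 0.992 (I2). Of 16244 genes, 4409 (27.1%) reached 5 in at least 1 pool. Of 7 listed neuron markers 4 were measured, and all of them reached 5 in every pool. Map2, a neuronal cytoskeletal gene, read 8.98 to 9.57, Uchl1 6.24 to 7.06 and Elavl4 8.94 to 10.59. Rbfox3, which codes for the nuclear marker NeuN, ran from 10.78 in E2 down to 5.39 in I3b. The 3 measured microglial markers and the 3 measured vascular markers were under 3 in every pool. Slc32a1, the vesicular carrier of GABA and glycine, read 9.20 to 9.76 in the inhibitory pools against 6.60 in E1 and 5.41 in E2. Slc17a6, a vesicular glutamate transporter, read 11.11 in E1 and 10.98 in E2, but also 8.60 in I1a, 10.48 in I1b and 6.93 in I3a.

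The sequences before the start sites of Synpr, Syn2 and Sv2b are given because these genes varied most among the pools. Synpr and Syn2 were high in the same pools and Sv2b was low there. Each is the 250 bases before the most upstream start of the gene in RefSeq for the mouse build GRCm38.p6, on the gene's strand. Of the 10 genes, 9 had an entry. They lie at chr14:13284530-13284779 on the plus strand (Synpr), chr6:115134652-115134901 on the plus strand (Syn2) and chr7:75309263-75309512 on the minus strand (Sv2b). Capitals mark matches, on either strand, to the GC box GGGCGG, the CCAAT box or the TATA box TATAAA.
Synpr: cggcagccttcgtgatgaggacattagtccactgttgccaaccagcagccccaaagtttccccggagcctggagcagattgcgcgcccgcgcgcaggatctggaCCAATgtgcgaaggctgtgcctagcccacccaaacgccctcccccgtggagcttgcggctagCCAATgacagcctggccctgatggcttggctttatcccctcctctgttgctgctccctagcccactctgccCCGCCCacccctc
Syn2: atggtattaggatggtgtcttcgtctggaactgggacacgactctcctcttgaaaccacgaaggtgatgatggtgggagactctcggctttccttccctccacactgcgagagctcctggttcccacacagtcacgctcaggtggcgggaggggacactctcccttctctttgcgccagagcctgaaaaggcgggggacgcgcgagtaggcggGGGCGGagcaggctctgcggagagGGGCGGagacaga
Sv2b: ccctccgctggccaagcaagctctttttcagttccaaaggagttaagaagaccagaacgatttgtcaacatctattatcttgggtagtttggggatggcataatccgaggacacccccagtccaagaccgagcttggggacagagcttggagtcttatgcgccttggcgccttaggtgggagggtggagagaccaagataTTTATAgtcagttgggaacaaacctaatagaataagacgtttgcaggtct

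The Synpr window held 1 GC box, 13 bases before the start, and CCAAT boxes 146 and 84 bases before it. The Syn2 window held GC boxes 37 and 13 bases before the start. The Sv2b window held neither motif. It held a match to TATAAA 50 bases before the start, on the strand opposite to the gene. Synpr had 13 CpG pairs and a GC content of 64.0%, Syn2 16 and 61.2%, and Sv2b 7 and 48.8%. Among 32851 promoters of the same length, 32.7% held a GC box, 33.8% a CCAAT box and 12.4% a TATA box, and the median was 6.0 CpG pairs with 52.4% GC. RefSeq lists 2 starts for Synpr, 2 for Syn2 and 4 for Sv2b, and the probe sets do not show which was used.

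Across the 7 pools, Synpr, Sv2b, Syn2 and Rab3c varied, and Syn1, Rab3a and Sv2a were nearly level. The span between the lowest and the highest pool was 7.79 log2 units for Synpr, 3.97 for Sv2b, 1.97 for Syn2 and 1.49 for Rab3c, against 0.56 for Syn1, 0.46 for Rab3a and 0.18 for Sv2a. The median over the 4409 kept genes was 1.13, and the span of Synpr was larger than that of 99.8% of them. For Sv2b this share was 96.9%, for Syn2 79.8%, for Rab3c 66.6%, for Syn1 13.7%, for Rab3a 8.21% and for Sv2a 0.658%. A test of any difference among the pools (limma's F test over 14 arrays, called at an adjusted p under 0.05 with a span of at least 1) called those 4 of the 7 tested members, where 55.2% of all genes were called. Since both arrays of a type come from 1 pool, the error in this test is technical, and it compares these pools.

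**Figure D1:**
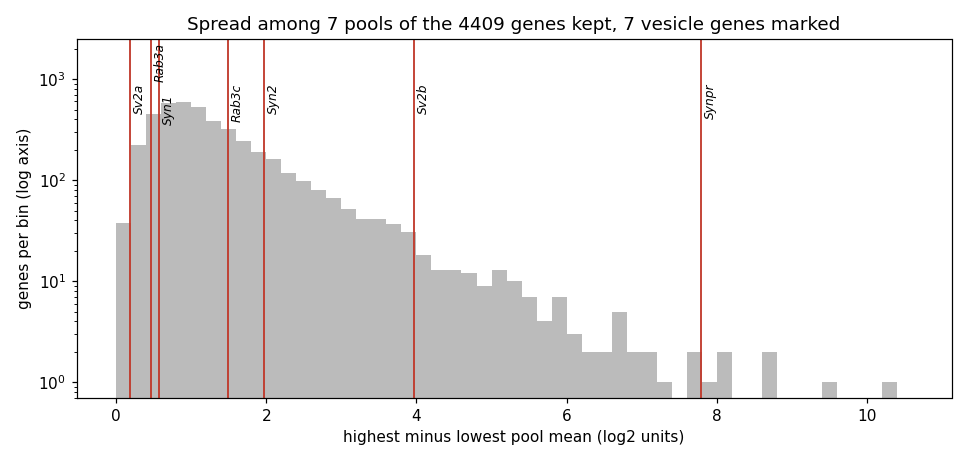
Span between the lowest and the highest pool mean (log2 units) of the kept genes, as a histogram over 4409 genes with a log axis of genes per bin, and with the 7 tested members as vertical lines. Synpr at 7.79 and Sv2b at 3.97 lie in the right tail, while Sv2a, Rab3a and Syn1 lie below the median of 1.13.

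Synaptoporin, the relative of synaptophysin, had the widest span of the members. Synpr (probe set 1423640_at, chromosome 14) read 4.22 and 4.02 on the arrays of E1, 7.79 and 7.54 in E2, 6.10 and 6.35 in I1a and 6.67 and 7.01 in I1b. It read 11.85 and 11.97 in I2, 8.84 and 9.07 in I3a, and 9.75 and 9.86 in I3b. I2 was highest and E1 lowest, no 2 pools overlapped in their arrays, and E2 lay above both I1 pools.

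The order was I2, I3b, I3a, E2, I1b, I1a and E1, and each of the 6 steps between neighbours passed an adjusted p of 0.05, from 4.52e-07 for I2 over I3b to 0.00664 for I1b over I1a. The background for this call was 23.4% to 56.3% of genes over the 21 pairs of pools. I1a minus I1b was -0.61 log2 units, and ran from -0.78 to -0.37 over the other processing settings. I2 stood 2.10 log2 units over I3b, or 4.29-fold, and 7.79 over E1, or 6.91 with levels under 5 set to 5. With a difference of at least 1 log2 unit also required, Synpr was called in 18 of the 21 pairs, where 6.31% to 25.8% of all genes were called. The exceptions were E2 against I1b, I1a against I1b and I3a against I3b.

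Synaptophysin itself, the most widely used marker of vesicles, stayed under the level needed for a test. The stronger of its probe sets (1448280_at, chromosome X) ran from 3.97 to 5.05 over the 14 arrays and from 4.03 to 4.72 over the pool means. The other (1456249_x_at) ran from 2.39 to 3.56, with 10 arrays within 0.01 of the floor. Both E1 arrays of the first, at 3.97 and 4.10, lay below every other array, the next being at 4.15. The gene was not tested, and its values do not show that the transcript was absent or equal among types.

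Of the SV2 genes, Sv2b varied among the pools, Sv2a did not beyond the spread of the arrays and Sv2c was too low to test. Sv2b (1434800_at, chromosome 7), an isoform with a more restricted distribution in the brain than Sv2a, read 5.55 and 5.66 in E1, 6.68 and 6.50 in E2, 4.33 and 3.62 in I1a, and 5.90 and 5.74 in I1b. It read 2.75 and 2.55 in I2, 2.55 and 2.69 in I3a, and 2.69 and 2.81 in I3b. The E pools and I1b were high, I1a was between, and I2 and both I3 pools overlapped one another near the floor.

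In the order E2, I1b, E1, I1a, I3b, I2 and I3a, E2 differed from I1b (adjusted p = 0.0234), E1 from I1a (0.000181) and I1a from I3b (0.00111). I1b did not differ from E1 beyond the spread of the arrays (0.556), nor I3b from I2 (0.768) or I2 from I3a (0.929). E2 stood 3.97 log2 units over I3a and I1b 3.17 over I2. These differences depend on how the background was handled, since I2 and the I3 pools lay near the floor, and the whole span of Sv2b was 1.59 with levels under 5 set to 5. Sv2b was called in 15 of the 21 pairs, where 6.31% to 25.8% of all genes were called. The calls of I1a over I2, I3a and I3b lay wholly under 5, and the other calls had their lower pool under 5. This count was not repeated with levels under 5 set to 5, so it depends on the background too.

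Sv2a, the isoform used by most neurons, gave no usable variation. Its probe set (1423406_at, chromosome 3) read within 0.02 of 5.01 on 8 of 14 arrays, and all arrays lay between 4.50 and 5.27. Such a repeated value was also seen in 159 of the kept genes, and a level that repeats in this way says little about how types compare. Sv2c (1453715_at, chromosome 13) was within 0.01 of the floor on 13 arrays and at most 2.59.

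**Figure D2:**
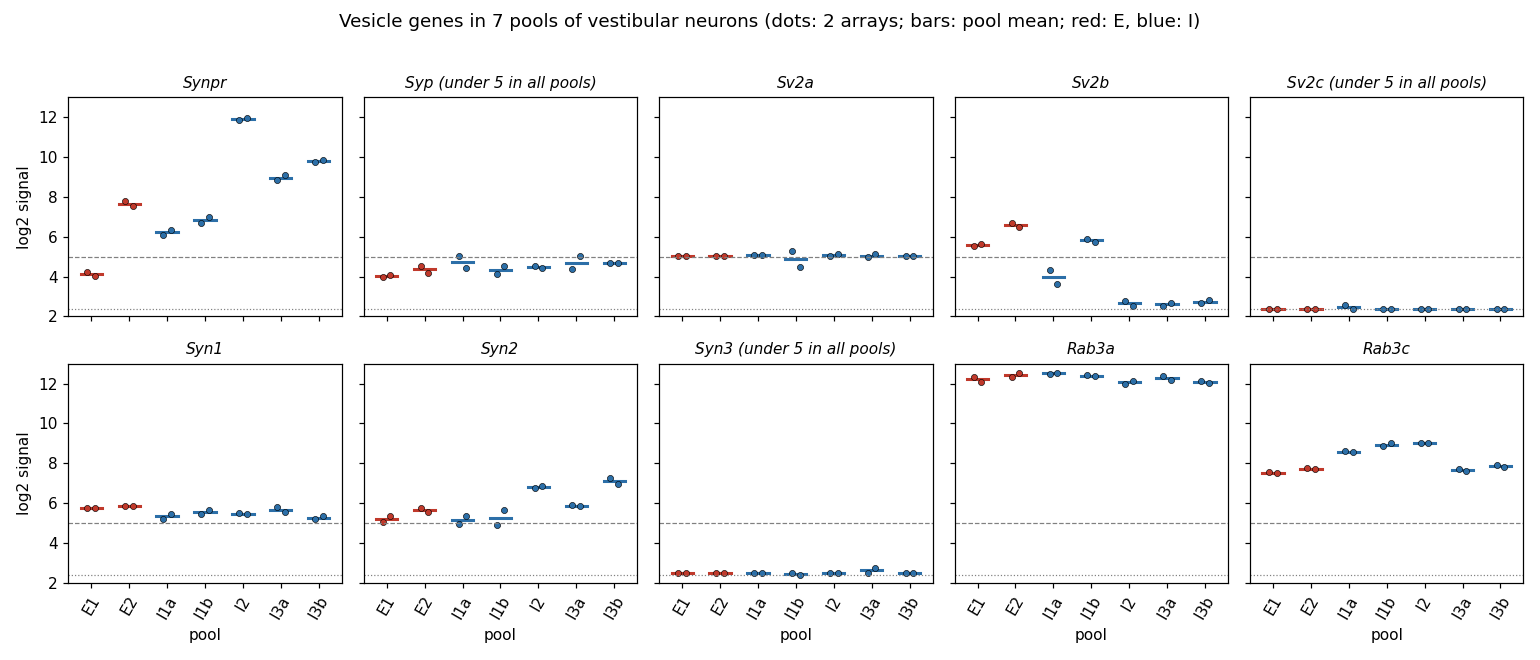
Log2 signal of each member (vertical axis) in the 7 pools (horizontal axis), with 1 point per array and a bar at the pool mean, red for excitatory and blue for inhibitory types, a dashed line at the level of 5 needed for a test and a dotted line at the floor. Synpr peaks in I2 and is lowest in E1, Sv2b is near the floor of 2.39 in I2, I3a and I3b, and Rab3a, Syn1 and Sv2a are nearly flat.

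Of the synapsins, Syn2 varied among the pools and Syn1 did not move far. Syn2 (1435511_at, chromosome 6) read 5.07 and 5.33 in E1, 5.76 and 5.54 in E2, 4.95 and 5.36 in I1a, and 4.88 and 5.66 in I1b. It read 6.78 and 6.84 in I2, 5.91 and 5.84 in I3a, and 7.28 and 6.97 in I3b. I3b and I2 were high without overlapping any other pool, I3a came next, and the E and I1 pools were lowest.

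The 2 highest Syn2 pools, I3b and I2, did not differ from each other (adjusted p = 0.315), I2 differed from I3a (0.93 log2 units, adjusted p = 0.00593), and no later neighbours differed. I3b stood 1.97 log2 units over I1a, or 3.92-fold. Syn2 was called in 9 of the 21 pairs, where 6.31% to 25.8% of all genes were called. A second Syn2 probe set (1428460_at) had pool means of 4.88 in E1, 5.44 in E2, 5.09 in I1a, 5.85 in I1b, 6.69 in I2, 6.09 in I3a and 6.65 in I3b, and correlated with the first at r = 0.896 over the 7 pools. It also put I2 and I3b above the rest, with I2 first. The remaining Syn2 probe sets, 1458105_at and 1440762_at, were too low in every pool to enter the tests.

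Syn1 (1451484_a_at, chromosome X), the synapsin of most mature terminals, had pool means of 5.76 in E1, 5.84 in E2, 5.34 in I1a, 5.56 in I1b, 5.48 in I2, 5.68 in I3a and 5.28 in I3b. Its F test passed (adjusted p = 0.0303), but the span of 0.56 was under 1 log2 unit and no neighbours in the order differed. Syn3 (1421248_at, chromosome 10) was between 2.40 and 2.76, with 12 arrays within 0.02 of 2.49.

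The Rab3 genes also differed from each other in pattern. Rab3c (1435047_at, chromosome 13) read 7.55 and 7.50 in E1, 7.77 and 7.70 in E2, 8.59 and 8.55 in I1a, and 8.86 and 9.00 in I1b. It read 8.99 and 9.03 in I2, 7.69 and 7.59 in I3a, and 7.90 and 7.82 in I3b. The I1 pools and I2 formed a high group that did not overlap with the low group of both E and both I3 pools.

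Within the high group I2 and I1b did not differ (adjusted p = 0.508), and I1b differed from I1a (0.00905). I1a minus I1b was -0.36 log2 units, and ran from -0.43 to -0.08 over the other processing settings. The step from I1a down to I3b passed as well (0.000100), and no neighbours in the low group differed. I2 stood 1.49 log2 units over E1, or 2.81-fold, and I1b 1.07 over I3b, or 2.10-fold. Rab3c was called in 9 of the 21 pairs, where 6.31% to 25.8% of all genes were called. Its other probe sets read at most 3.34.

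Rab3a, the main Rab3 of brain synapses, had pool means of 12.21 in E1, 12.43 in E2, 12.51 in I1a, 12.39 in I1b, 12.05 in I2, 12.26 in I3a and 12.08 in I3b on 1459980_x_at (chromosome 8). All arrays lay between 11.99 and 12.54, and the span of 0.46 was under 1 although the F test passed (adjusted p = 0.00482). Probe sets with this suffix can hold probes that also match other transcripts. The other Rab3a probe set, 1422589_at, read only 4.06 to 4.58, with 7 arrays within 0.02 of 4.44, so the high level rests on 1 probe set. Over the pools the 2 probe sets correlated at r = 0.873.

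Over the 7 pool means, Synpr and Syn2 followed each other (r = 0.865, rho = 0.929). Sv2b ran against both, at r = -0.687 (rho = -0.571) with Synpr and r = -0.682 (rho = -0.500) with Syn2. Rab3c was only weakly related to Synpr (r = 0.338, rho = 0.429). These are descriptions over 7 points that share the arrays, the amplification and the normalization, and they carry no test.

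Measures of the arrays moved with these genes too. Dap, a bacterial control transcript and no neuronal gene, read 4.57 to 5.09 in the E and I1 pools and 5.86 to 6.33 in I2 and the I3 pools. It correlated with Synpr at r = 0.867, with Syn2 at 0.797 and with Sv2b at -0.810, and the control Lys did so at 0.730, 0.690 and -0.883. The control Phe did so at 0.799, 0.893 and -0.697. Rab3c correlated with Dap at 0.154, with Lys at 0.0153 and with Phe at 0.354. It correlated at -0.655 with BioB, at -0.614 with BioC, at -0.655 with BioDn and at -0.612 with Cre, which are further added controls. With Synpr those gave -0.0694 to -0.0279, and their second probe sets gave -0.0972 to 0.144. S100b, which was listed as an astrocyte marker, read 9.02 in E1 and 5.24 in I2 and correlated with Synpr at r = -0.897 and with Sv2b at 0.826. The other 4 of the 5 astrocyte markers were under 3 in every pool, and the mean of the list ran from 2.96 to 3.71. The oligodendrocyte marker Mbp, at 6.20 in I3a and 5.50 in I1b, correlated with Synpr at 0.0626, and 3 of the 4 oligodendrocyte markers were under 3 in every pool. Their part in the member results was not tested.

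Among 856 other genes that spanned at least 2 log2 units, the 3 whose pool means were most like those of Synpr by Pearson's r were Wdr6 (0.966), Tspan2 (0.965) and Ncam1 (0.961). Ncam1, a neural cell adhesion molecule, read 5.65 in E1, 6.60 in E2, 6.75 in I1a, 6.76 in I1b, 8.47 in I2, 7.92 in I3a and 7.88 in I3b. The 3 most like Sv2b were Met (0.987), Nrn1 (0.983) and Rasgrp1 (0.981). Met, the receptor of hepatocyte growth factor, read 5.76 in E1, 6.40 in E2, 3.88 in I1a, 6.28 in I1b, 3.17 in I2, 2.71 in I3a and 2.75 in I3b. Met was picked for its likeness to Sv2b, so its being high in the same pools is no separate result. Of the candidates, 17 had r over 0.9 with Synpr and 20 with Sv2b, over the same 7 pools.

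**Figure D3:**
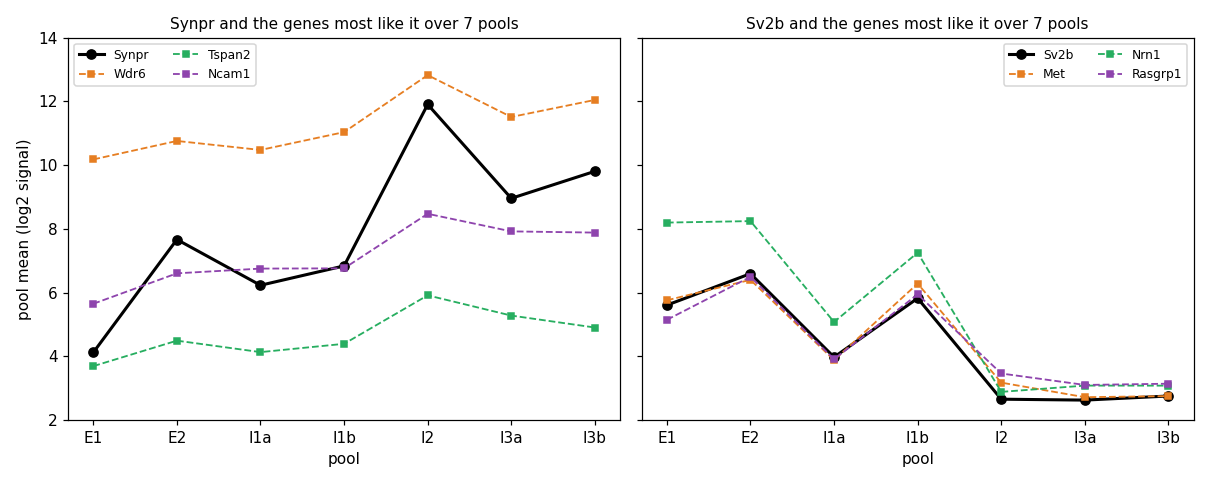
Pool means (log2 signal, vertical axis) of Synpr and Sv2b as solid lines in the 7 pools (horizontal axis), each with the 3 genes most like it as dashed lines, where levels of different genes are not to be compared. The genes like Synpr peak in I2, and those like Sv2b are high in E1, E2 and I1b and low in I2, I3a and I3b.

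The study's widest division is between excitatory and inhibitory types, tested here on the 7 pool means. No member was called, where 0.0227% of all genes (1 of 4409) were, and at an unadjusted p under 0.05 there was 1 member, Sv2b, where 6.19% of genes passed. Sv2b was 2.54 ± 0.91 (SE) log2 units higher in the E pools (limma, adjusted p = 0.737), with I1b lying between the E pools. Synpr was lower in E than in I, at -2.86 ± 1.60 (SE) log2 units, adjusted p = 0.780. E2 lay inside the inhibitory range and E1 below it.

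These values rest on few pools. Synpr differed by -1.08 without E1 and by -4.63 without E2, and Sv2b by 0.93 once levels under 5 were set to 5. Syn2 was at -0.62 ± 0.57 (adjusted p = 0.839), or -0.35 without I3b, and Rab3c at -0.77 ± 0.42 (0.780). Rab3a (0.06) and Sv2a (-0.0010) were near 0. Syn1 was the 1 member without overlap, both E pools being above all I pools by a mean of 0.33 (adjusted p = 0.780), and 12.2% of all genes were free of overlap in this way. The median of the 7 tested members was -0.0010 against -0.0075 over all genes.

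Between the inhibitory families I1 and I3, with 2 pools each, no member and no other gene was called by limma (0% of 4409). At an unadjusted p under 0.05 there were 4 members, Synpr, Sv2b, Syn2 and Rab3c, where 11.2% of genes passed. I1 was lower than I3 in Synpr by -2.85 ± 1.11 (SE; adjusted p = 0.420) and in Syn2 by -1.29 ± 0.44 (0.383). It was higher in Sv2b by 2.21 ± 0.67 (0.356) and in Rab3c by 0.999 ± 0.24 (0.284).

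In those 4 genes and in Rab3a (0.28, adjusted p = 0.580) both I1 pools lay on one side of both I3 pools, and 40.0% of all genes were free of overlap. Sv2b was called here with adjusted p = 0.0401 when all arrays were fitted with the pool as a random block, though not with the replicate number as a further block (0.0521). Rab3c passed by p in both fits (0.00822 and 0.0141) but missed the size needed for a call, at 0.999. Sv2b was 1.29 without I1b, 3.13 without I1a and 0.41 with levels under 5 set to 5, and Syn2 was -0.66 without I3b. Syn1 (-0.03) and Sv2a (-0.06) were near 0, and the median of the members was -0.03 against -0.04 over all genes.

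**Figure D4:**
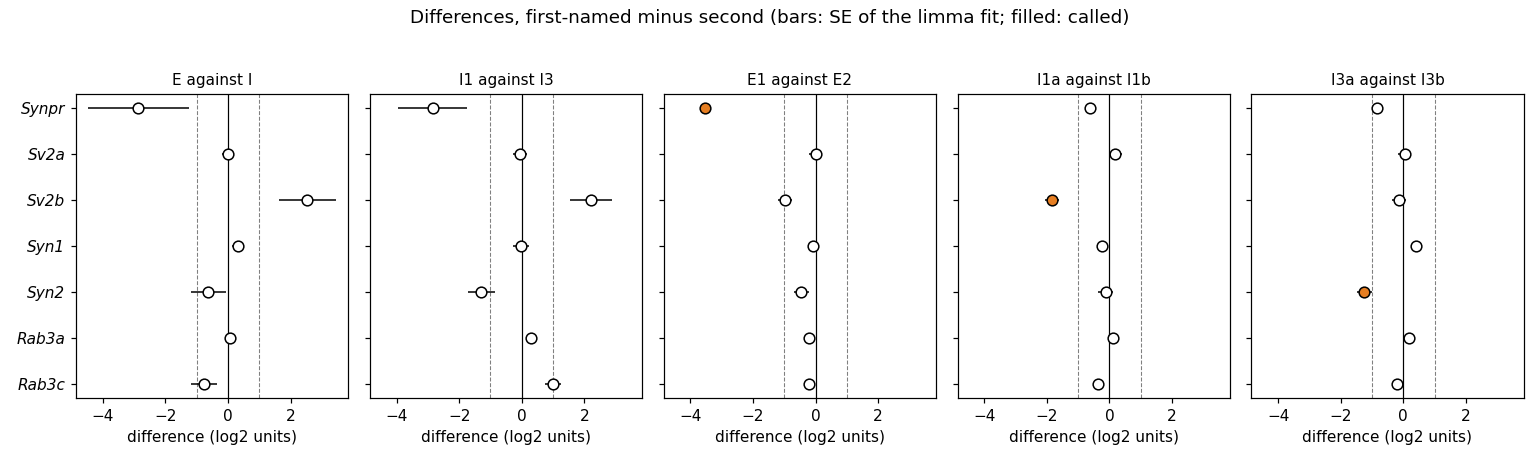
Difference of each tested member in the 5 comparisons (log2 units, first-named group minus second), with bars of 1 standard error, called values filled and dashed lines at the size of 1 needed for a call. Synpr in E1 against E2, Sv2b in I1a against I1b and Syn2 in I3a against I3b were called, all lower in the first-named pool.

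Within each pair of related types 1 of the 7 tested members was called: Synpr between E1 and E2, Sv2b between I1a and I1b, and Syn2 between I3a and I3b. These tests compare 2 pools by the spread of their arrays, and a further pool of the same type could differ as well. Between the excitatory pools, Synpr was higher in E2 by 11.7-fold (-3.55 ± 0.15 log2 units, SE, adjusted p = 5.50e-08). With levels under 5 set to 5, as E1 was, the difference was -2.66. Of all genes 7.39% were called there, 3.20% in this direction. Sv2b was higher in E2 as well (-0.99 ± 0.23, adjusted p = 0.00715), just short of the size required, and it passed with arrays centred on their median (-1.04). It also passed without E1 replicate 2 (-1.04) or without E2 replicate 2 (-1.08). Syn2, Rab3a, Rab3c and Syn1 had adjusted p of 0.122 to 0.741.

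Between I1a and I1b, Sv2b was higher in I1b by 3.60-fold (-1.85 ± 0.23, adjusted p = 6.21e-05), where 13.1% of genes were called, 9.78% in this direction. All genes together were shifted to I1b by a median of -0.22, and with arrays centred Sv2b was at -1.61, still called. With levels under 5 set to 5 it was -0.82, too small for a call, since I1a lay under 5. Synpr (-0.61, adjusted p = 0.00664) and Rab3c (-0.36, 0.00905) passed by p but not by size. Over the other processing settings, arrays left out among them, Synpr ran from -0.78 to -0.37 and Rab3c from -0.43 to -0.08. Both kept their direction, and the part of the shift to I1b in these 2 values was not tested.

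Between I3a and I3b, Syn2 was higher in I3b by 2.38-fold (-1.25 ± 0.24, adjusted p = 0.00214), where 9.91% of genes were called, 6.92% in this direction. The second Syn2 probe set gave -0.56 (adjusted p = 0.0609 over 5329 probe sets), so the call rests on 1 of them. Synpr was also higher in I3b (-0.85, adjusted p = 0.00140) but by less than 1 log2 unit. The tests do not compare one pair with another. Markers of neurons and of glia differed within these pairs as well. Rbfox3 was higher in I3a than in I3b (2.98, adjusted p = 2.91e-08), the pair in which Syn2 was called, and over the 7 pools it correlated with Syn2 at r = -0.793 and with Sv2b at 0.827. S100b was higher in E1 than in E2 (1.96) and in I1b than in I1a (-1.26), and Mbp was higher in I1b than in I1a (-3.07) and in I3a than in I3b (2.78). The part of these markers in the member results was not tested.

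Genes that work beside the members were read from lists of the same vesicle cycle. Of 17 listed relatives in the vesicle membrane, 14 were measured and 10 tested, and none was called in E against I, I1 against I3, E1 against E2 or I3a against I3b. Of all genes, 0.0227% were called in E against I, 0% in I1 against I3, 7.39% in E1 against E2 and 9.91% in I3a against I3b. With 10 genes tested, no call is near these shares. In I1a against I1b, where 13.1% of all genes were called, 1 was called. It was Sypl, a synaptophysin-like protein found widely outside neurons, higher in I1a by 1.39 (adjusted p = 0.00137). Over all pools 3 of 10 were called by the F test, against 55.2% of all genes. One was Syngr3, a synaptogyrin that crosses the vesicle membrane as synaptophysin does, which read 6.55 in E1, 6.90 in E2, 6.57 in I1a, 7.28 in I1b, 8.22 in I2, 7.35 in I3a and 7.79 in I3b. Its order was like that of Synpr (r = 0.932, rho = 0.964 over 7 pools) and of Syn2 (r = 0.874, rho = 0.893). Syngr1, the other tested synaptogyrin, was at r = -0.662 (rho = -0.750) with Synpr and -0.355 (rho = -0.643) with Syn2. The F test did not call Syngr1 (span 0.70, adjusted p = 0.192), so its correlations say little. The remaining synaptogyrins were too low to test, and the likeness of Syngr3 cannot be extended to the family.

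Of 15 genes of the Rab3 cycle and its effectors, 12 were measured and 6 tested, and 2 were called in each pair of related types. Of all genes, 7.39% were called in E1 against E2, 13.1% in I1a against I1b and 9.91% in I3a against I3b. The 2 called effector genes were the same throughout. Rims2, a RIM scaffold that binds Rab3 at the release site, was higher in E1 than in E2 (1.31), in I1a than in I1b (1.13) and in I3a than in I3b (1.70). Rab27b, a related secretory GTPase, was higher in E1 than in E2 (1.02), but lower in I1a than in I1b (-1.16) and in I3a than in I3b (-1.46). Neither was called in E against I or I1 against I3, where the list medians were 0.21 and 0.14.

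Of 13 kinases and phosphatases that act on synapsins, 11 were measured and 6 tested, and the 1 called in a pair was Ppp3ca, a catalytic subunit of calcineurin, higher in I1b than in I1a (-1.37). None was called in E against I or I1 against I3, where Camk2g read 1.25 higher in E and Camk2d 1.12 higher in I1. Of 13 endocytosis genes, 12 were measured and 10 tested. Cltc, the clathrin heavy chain, was higher in I1b than in I1a (-1.56), and Amph, amphiphysin, was higher in I3b than in I3a (-1.23). Of all genes, 13.1% were called in I1a against I1b and 9.91% in I3a against I3b. By the F test over all pools, 4 of the 6 kinases and phosphatases and 4 of the 10 endocytosis genes were called, beside 3 of the 6 Rab3 genes, where the share of all genes was 55.2%.

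Of 13 listed genes of the release machinery, 10 were measured and 9 tested, and 8 were called by the F test over all pools, where 55.2% of all genes were. None was called in E against I or I1 against I3, though Syt2, a fast calcium sensor, was 2.79 higher in E and 3.23 higher in I1, and Stx1a, a plasma membrane syntaxin, lower by -3.08 and -2.40. Between E1 and E2, Cplx2 (-2.42), Syt1 (-2.09) and Stx1a (-1.52) were called higher in E2, the pool that was also higher in Synpr. Between I1a and I1b the called genes were Stx1a (1.50), Syt2 (-1.84) and Cplx2 (-1.34), and between I3a and I3b Syt1 (-2.77) and Syt2 (1.57). Of all genes, 7.39% were called in E1 against E2, 13.1% in I1a against I1b and 9.91% in I3a against I3b. Over the 7 pools Sv2b was like Syt2 (r = 0.931, rho = 0.714) and like Vamp1, a synaptobrevin (r = 0.905, rho = 0.786). Atp6v1b2, of the vesicle membrane list, was as like Sv2b (r = 0.913, rho = 0.857), and Stx1a ran against it (r = -0.894, rho = -0.786). Many listed genes were read in this way, over 7 points and with no test. Synpr ran against Vamp1 (r = -0.908, rho = -0.857) and against Cplx1, a complexin (r = -0.924, rho = -0.929). Vamp2, another synaptobrevin, went the other way from Vamp1, so synaptobrevins had no common relation to the members. It correlated with Synpr at r = 0.830 (rho = 0.821) and with Sv2b at -0.854 (rho = -0.750), at levels from 4.19 in E1 to 5.97 in I3b.

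The members were also read beside the glutamate transporter. Slc17a6 correlated with Sv2b at r = 0.894 (rho = 0.786), with Synpr at -0.861 (rho = -0.857) and with Syn2 at -0.915 (rho = -0.714), over the 7 pools and with no test. I1b, the inhibitory pool with the most Slc17a6 (10.48), was also the inhibitory pool with the most Sv2b (5.82), and I2 had little of either (3.11 and 2.65). I3a went the other way, with 6.93 for Slc17a6 and 2.62 for Sv2b.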

How the data were processed

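Each of 7 pools of single-cell cDNA was read on 2 arrays, technical replicates that are not separate animals or cultures. The authors deposited log2 signals made with affy and GCRMA (background adjustment, normalization between arrays, summary per probe set), per the submitters' processing notes, with versions not given in the sources used here and the log base taken from the values. They were used as deposited. Gene symbols came from the platform annotation, and 23883 of the 24034 probe sets with 1 symbol matched RefSeq by Entrez identifier. A gene was represented by its probe set with the highest mean and kept at a pool mean of 5 or more, so a member that passed may have done so through its high pool. R 4.3.3 with limma 3.58.1 (lmFit and eBayes with an intensity trend) was used. E against I and I1 against I3 were tested on pool means, the latter with 4 families, and the 3 pairs of related types, all pairs and the F test on 14 arrays. A call required an adjusted p under 0.05 (Benjamini-Hochberg, over 4409 genes) and a size of 1 log2 unit or more. Every p given with a difference is limma's. Scripts were tested on simulated data. Figures used matplotlib 3.10.9.

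All members and every probe set of each were named. From each list, up to 4 called genes per comparison could be named, or at most 2 where none was called, and the 3 genes most like each member that spanned at least 2 log2 units. Syngr1, Vamp2, Cplx1 and Atp6v1b2 were named in addition. The members and lists were chosen with earlier results of these data known.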

Additional observations from a re-analysis of the deposited data

Results flagged for a closer look

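The level of Sv2a in I1b, 4.88, was the lowest of the 5 inhibitory pools and stood apart from the other 4, of which the nearest was at 5.01. The 2 arrays of I1b read 5.27 and 4.50, above and below the value of 5.01 that repeats on 8 of the 14 arrays, so the pool mean stands for neither. Small groups give such gaps by chance at times.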

How the results depend on the processing

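The arrays were technical, and 1 pool per type limits every statement on types. Deviations of same-numbered arrays were at most weakly correlated between pools (4 of 21 pairs of pools had r over 0.1, from -0.117 to 0.212). The highest values were for I1a with E1 (0.212) and with E2 (0.208), and they were not tested. With a replicate block 1 member was called in each pair of related types and 4 by the F test, as without it, and with the pool as a random block too 0 members were called in E against I and I1 against I3 (5 and 104 of all genes). With the pool as a random block alone, 1 member was called in I1 against I3. In E1 against E2, 2 members were called after quantile normalization (Sv2b, -1.035) or centring, and 1 to 2 with an array left out. In I1a against I1b, 0 were called with a filter at 7, where Sv2b was not tested, and 0 with levels under 5 set to 5. With the median of a gene's probe sets, 0 were called in I3a against I3b and 2 by the F test, as Syn2 and Rab3c then missed the filter. The cause of the other changes was not tested.

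Some uncalled values near 0 changed sign. For Sv2a these were 0.0060 (quantile) and 0.013 (centred) in E against I, 0.063 (under 5 set to 5) in I1 against I3, -0.042 (quantile) and -0.047 (centred) in E1 against E2, and -0.067 (under 5 set to 5) in I1a against I1b. Syn1 was at 0.0091 (centred) in I1 against I3 and 0.017 (centred) in I1a against I1b, and Syn2 at 0.064 (quantile) and 0.13 (centred) in I1a against I1b. With a pool or array left out, Sv2a ran from -0.058 to 0.056 in E against I, -0.28 to 0.16 in I1 against I3, -0.20 to 0.56 in I1a against I1b and -0.017 to 0.10 in I3a against I3b, Rab3a from -0.045 to 0.17 in E against I, Syn1 from -0.23 to 0.17 in I1 against I3 and Syn2 from -0.50 to 0.27 in I1a against I1b. Of all genes, 193, 304, 218 and 1350 were called with a filter at 7 in E1 against E2, I1a against I1b, I3a against I3b and the F test, against 326, 579, 437 and 2433, and 203, 330, 262 and 1537 with the median of probe sets, while with levels under 5 set to 5 the pairs gave 217, 358 and 256. In E against I and I1 against I3 they reached 6 and 114 with the pool as a random block, against 1 and 0. Leaving out genes at a repeated value, chosen after seeing the data, changed no member call.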
